A study of Mus musculus with 4 samples.

Results

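The naive and formative pluripotency network was followed as 40 named genes in mouse embryonic stem cells (ESCs) with and without knockdown of the m6A reader Ythdf2. The genes were chosen by symbol, as factors of the core and naive circuits, the response to leukemia inhibitory factor (LIF) and the formative state, by a rule that uses no measured value, though earlier results of these data were known. They are 40 of the 49997 genes in the count table, and 39 of them had enough reads for testing, among 18341 genes tested. All 4 libraries came from ESCs of the E14 line, which per the study's methods also carried a tdTomato reporter driven by the MERVL promoter. The control group, shScramble, and the knockdown group, shYthdf2, each had 2 libraries and carried a short hairpin RNA from a lentivirus, scrambled or directed at Ythdf2. Stable lines of both groups were kept by puromycin selection on gelatin, in a medium with 15% serum replacement and LIF at 1000 U/ml. The methods list more than 1 hairpin against Ythdf2 and the labels do not say which these libraries carry, so hairpins were not compared here. The methods call the 2 libraries of a group independent biological replicates, and each library is a bulk measurement of a whole culture.

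In the naive state, ESCs keep the program of the early epiblast through OCT4 (Pou5f1), SOX2 and NANOG, which act with a wider circle of factors such as KLF2, KLF4, KLF5, ESRRB, TFCP2L1, TBX3 and PRDM14. LIF sustains this state through its receptor, the shared subunit gp130 (Il6st) and the transcription factor STAT3, while FGF4 made by the cells themselves prepares them to leave it. On leaving, cells pass through a formative phase, in which Otx2, Pou3f1 and Fgf5 come on and the naive factors decline. YTHDF2 binds mRNAs carrying N6-methyladenosine (m6A) and promotes their decay, and transcripts of several pluripotency factors are known to carry this mark.

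Each library held between 31113006 and 36422510 counted reads, and the 40 genes took 1.27% and 1.23% of them in shScramble and 1.21% and 1.15% in shYthdf2. Ythdf2 fell by 1.55 on the log2 scale (SE 0.11, adjusted p = 0.00069 by edgeR's quasi-likelihood test), from counts-per-million values (CPM, scaled by TMM) of 93.4 and 87.6 to 31.8 and 30.2. At an adjusted p under 0.05, shYthdf2 had 445 higher and 273 lower genes of all those tested. Permuting 2 libraries against 2 allows no exact two-sided p under 0.333, and single genes therefore carry the p from the fit over all genes.

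The levels of the network covered a wide range. In RPKM, the CPM divided by the exon length in kilobases, the defining ESC markers were all high in every library, with Pou5f1 between 696 and 846, Nanog between 310.2 and 436, Sox2 between 241 and 289, Zfp42 between 239 and 285 and Esrrb between 154 and 169. The highest member was Dppa5a, a small RNA-binding protein of ESCs and germ cells, at 1036 to 1471 RPKM. Utf1, a chromatin-associated factor of ESCs, reached 325 to 469.7 RPKM, and its range overlapped that of Nanog. At the other end, the formative genes Otx2, Pou3f1 and Sall2 lay between 0.68 and 3.36 RPKM, and Fgf5 between 0.047 and 0.11 RPKM, from 8 and 4 reads in shScramble and 4 and 10 in shYthdf2. Fgf5 was the 1 member too low to test. Dppa3, a maternal factor that protects methylated DNA, was low and uneven, with 4.08 and 5.30 CPM in shScramble and 7.52 and 3.21 CPM in shYthdf2. The other formative genes, Zic2, Foxd3 and Tcf15, lay between 17.6 and 56.1 RPKM. The range of Zic2 overlapped that of the lower naive factors Prdm14, Nr5a2 and Gbx2, at 15.7 to 30.3 RPKM, and Tcf15 and Foxd3 lay above it.

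**Figure D1:**
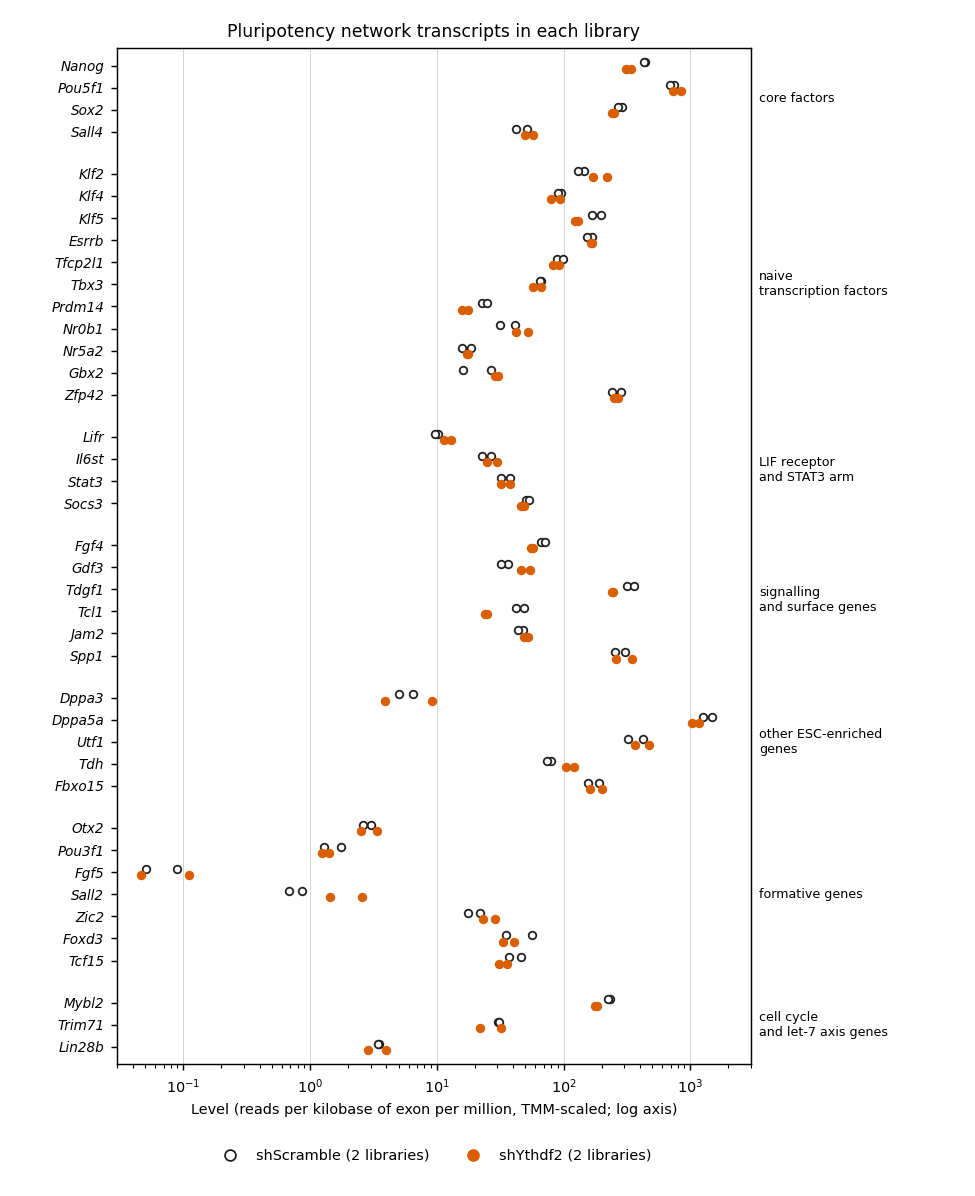
Level of each of the 40 genes in each library, in RPKM on a log axis, with open points for the 2 shScramble and filled points for the 2 shYthdf2 libraries, ordered by role. The levels run from Fgf5, between 0.047 and 0.11, to Dppa5a, between 1036 and 1471. For 11 members, among them Tcl1, Klf5, Prdm14 and Tdgf1, the filled points lie wholly left of the open ones, and for 9 wholly right. Of all genes tested, 51.8% had groups that did not overlap.

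Most of the network did not pass the threshold, and the genes that did went in both directions. Of the 39 genes tested, 7 passed an adjusted p under 0.05 over all genes (17.9%), where 3.91% of all genes tested did. The 4 lower genes were Tcl1, Klf5, Prdm14 and Tdgf1, beside a background of 1.49% of all genes called lower. The 3 higher genes were Sall2, Gdf3 and Tdh, beside a background of 2.43% called higher. In bulk RNA, fewer cells making a transcript and less of it per cell cannot be told apart. The differences themselves were not wide: the median absolute log2 fold change was 0.20 over the 39 genes and 0.25 over all genes tested, and the median standard error was 0.12 against 0.21. The signed median was -0.01 for the network and 0.00 for all genes tested (0.00188 before rounding), with 19 members above 0 and 20 below. The groups did not overlap for 20 of the 39 members, 9 higher and 11 lower, while 51.8% of all genes tested had groups that did not overlap. By the criteria in the study's methods, a DESeq2 p of at most 0.05 with a fold change of 1 or more in either direction on the log2 scale, only Sall2 was called among the members, beside 2.88% of all genes with a read.

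**Figure D2:**
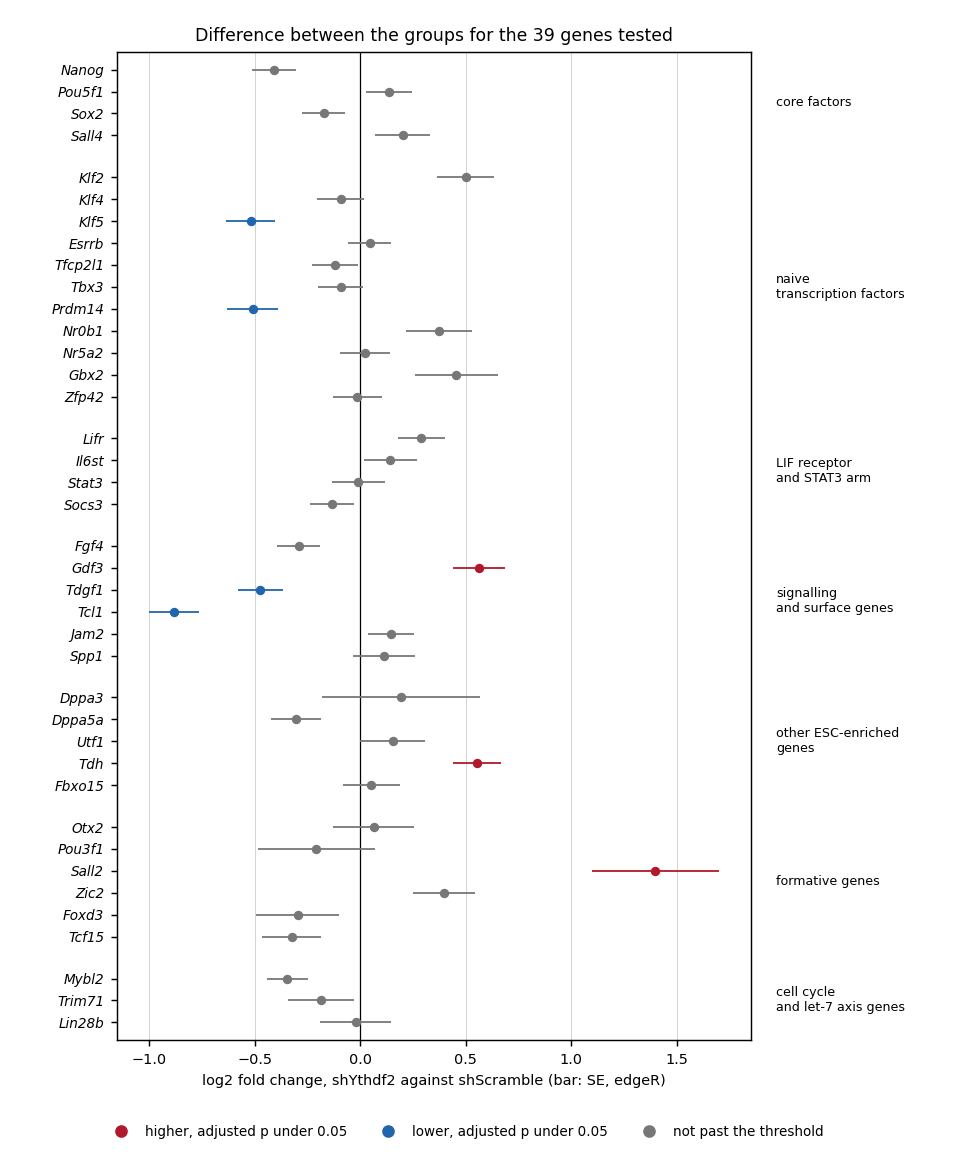
Log2 fold change of each of the 39 tested genes, shYthdf2 against shScramble, with its standard error from edgeR as a bar, ordered by role. Red points are higher and blue points lower at an adjusted p under 0.05, grey points did not pass. The blue points lie between -0.88 (Tcl1) and -0.47 (Tdgf1), the red points between 0.55 (Tdh) and 1.40 (Sall2).

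None of the 4 core factors passed the threshold, and their median log2 fold change was -0.02. Nanog, the homeodomain factor that holds ESCs in the naive state, was read at 977 and 968 CPM in shScramble and at 769.6 and 695 CPM in shYthdf2. Both knockdown libraries lay below both controls, and the log2 fold change was -0.41 (SE 0.10), with an adjusted p of 0.059 that just missed the threshold in edgeR. Of 7 other settings of the scaling, the expression filter, the test and the unit of counting, Nanog passed in 6 and missed in the RLE scaling. Sox2, the partner of OCT4 on DNA, was read at 712 and 659 CPM against 622 and 595 CPM, a log2 fold change of -0.17 (SE 0.10, adjusted p = 0.37, edgeR). Its groups did not overlap, but the difference did not pass. Pou5f1 was read at 1069.5 and 1005 CPM in shScramble and at 1221 and 1056 CPM in shYthdf2, with overlapping groups and a log2 fold change of 0.13 (SE 0.11, adjusted p = 0.54, edgeR). Sall4, a zinc finger factor that acts with OCT4 and NANOG, had 285 and 230.3 CPM against 318 and 275 CPM, again with overlap, and a log2 fold change of 0.20 (SE 0.13, adjusted p = 0.42, edgeR). Pou5f1 is annotated on chromosome 17 (35506032 to 35510777) and also on 2 extra contigs of the annotation, so its per-length level was taken over its exons on the chromosome alone. Reads that map to more than 1 place were dropped, so the level of Pou5f1 can be higher than counted. Its POU relative Pou3f1, of the formative set, had a log2 fold change of -0.21 (SE 0.28, adjusted p = 0.73, edgeR).

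Promoter sequences, from 250 bases before to 50 bases after an annotated start, were taken from RefSeq on GRCm38.p6, the assembly that mm10 is built on, and 27 of the 40 genes matched by symbol. The others were Dppa3, Dppa5a, Fbxo15, Gdf3, Jam2, Klf5, Pou3f1, Prdm14, Sall4, Tbx3, Tcf15, Tdh and Zic2. Both strands were searched for TGCATNACA, a core of the joint OCT4 and SOX2 element, for TTTGCAT, an octamer part that can overlap it, for the ESRRB motif TCAAGGTCA, the STAT motif TTCCNGGAA and the KLF motif GGGTGTGG. Nanog has 2 promoter entries, with nearby starts. The first (chr6:122707239-122707538, plus strand, GRCm38.p6) is shown because Nanog alone of the 27 genes held the joint core, which 0.801% of all 32851 promoters held. Capitals mark both matches, TTTGCAT at -75 to -69 and the joint core at -73 to -65 from its start, on the strand of the gene and overlapping each other. From the second start the same matches lie at -151 to -145 and -149 to -141.
Nanog: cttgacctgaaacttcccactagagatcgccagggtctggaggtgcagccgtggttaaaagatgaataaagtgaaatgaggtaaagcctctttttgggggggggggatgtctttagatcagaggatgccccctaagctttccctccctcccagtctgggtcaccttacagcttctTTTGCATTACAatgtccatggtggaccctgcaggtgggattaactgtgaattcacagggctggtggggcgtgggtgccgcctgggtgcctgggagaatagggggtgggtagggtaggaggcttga
The octamer part was also found in promoters of Sox2, Spp1 and Zfp42, and in 4.63% of all promoters. The KLF motif was found in that of Zfp42 and in 3.56% of all. The ESRRB and STAT motifs, held by 0.423% and 1.15% of all promoters, were in none of the 27. A match is a stretch of letters and does not show that a factor binds there.

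Among the 11 naive transcription factors, 2 fell, 0 rose and 9 did not pass, beside 1.49% of all genes tested called lower. The median log2 fold change of the 11 was -0.01. Both naive factors that fell had knockdown libraries wholly below the controls. Klf5, a zinc finger factor of the naive circuit (chr14:99298691-99313412, plus strand, mm10), was read at 343.5 and 288 CPM in shScramble and at 214 and 226 CPM in shYthdf2, a log2 fold change of -0.52 (SE 0.12, adjusted p = 0.040, edgeR). Its relative Klf2 had 265 and 237 CPM in shScramble and 401 and 309 CPM in shYthdf2. The Klf2 groups did not overlap, but its log2 fold change of 0.50 (SE 0.13) did not pass (adjusted p = 0.072, edgeR). Klf4, the third factor of the family in the list, overlapped between the groups, with a log2 fold change of -0.09 (SE 0.11, adjusted p = 0.70, edgeR). Of the 3 family members, 1 fell and 2 did not pass.

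Prdm14 (chr1:13113428-13127163, minus strand, mm10), which represses FGF signalling and DNA methyltransferase genes in naive cells, was read at 59.3 and 64.7 CPM in shScramble and at 46.0 and 41.0 CPM in shYthdf2. Its log2 fold change was -0.51 (SE 0.12, adjusted p = 0.049, edgeR), and it passed in 6 of the same 7 other settings, with limma-voom as the exception. The remaining factors stayed closer to the controls. Esrrb, Nr5a2 and Zfp42 (Rex1, a marker of the naive state) had log2 fold changes between -0.01 and 0.04, and Tfcp2l1 and Tbx3 of -0.12 and -0.09, all with overlapping groups. Gbx2, a STAT3 target homeobox gene, and Nr0b1 (Dax1, a nuclear receptor) had log2 fold changes of 0.46 (SE 0.20, adjusted p = 0.23, edgeR) and 0.37 (SE 0.16, adjusted p = 0.21, edgeR). Both had knockdown libraries above both controls, and neither passed. With a library left out, Gbx2 ran from 0.14 (without shScramble replicate 2) to 0.87 (without shScramble replicate 1), and Nr0b1 from 0.18 to 0.59 with the same libraries left out. For Gbx2, 40.1% of the 150-base windows of its transcript also occur in transcripts of D130058E05Rik, so reads from the pair could not be fully kept apart.

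None of the 4 genes of the LIF receptor and STAT3 arm passed, and their median log2 fold change was 0.07. Lifr, the LIF receptor subunit, was highest of the 4, with a log2 fold change of 0.29 (SE 0.11, adjusted p = 0.18, edgeR) and knockdown libraries above both controls. Il6st, which encodes gp130, had a log2 fold change of 0.14 (SE 0.13, adjusted p = 0.58, edgeR) and Stat3 one of -0.01 (SE 0.13, adjusted p = 0.98, edgeR), both with overlapping groups. Socs3, the feedback inhibitor that STAT3 switches on, was lowest at -0.13 (SE 0.10, adjusted p = 0.51, edgeR). The summed level of the arm was 611 and 567 CPM in shScramble and 606 and 612 CPM in shYthdf2, so the groups overlapped.

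The 6 signalling and surface genes held 3 of the 7 calls, 2 lower and 1 higher, where 3.91% of all genes tested were called. Tcl1, an activator of the AKT kinase that is strong in ESCs, had the lowest fold change of the network. It was read at 69.4 and 79.7 CPM in shScramble and at 41.1 and 39.8 CPM in shYthdf2, a log2 fold change of -0.88 (SE 0.12, adjusted p = 0.0066, edgeR), or 54.2% of that in the controls. Both knockdown libraries lay well below both controls. Tcl1 passed in all 7 other settings of the scaling, the filter, the test and the unit of counting, as did Klf5, Tdgf1, Gdf3 and Tdh. Those settings all refit the same 4 libraries. Tdgf1 (Cripto), the membrane co-receptor for Nodal, was read at 658 and 748 CPM in shScramble and at 510.1 and 503 CPM in shYthdf2, a log2 fold change of -0.47 (SE 0.11, adjusted p = 0.041, edgeR). Its knockdown libraries differed from each other by far less than they did from the controls.

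Gdf3, a secreted member of the TGF-beta family that acts through the same co-receptor (chr6:122605403-122610087, minus strand, mm10), went the other way. It was read at 87.1 and 76.3 CPM in shScramble and at 131 and 111 CPM in shYthdf2, a log2 fold change of 0.56 (SE 0.12, adjusted p = 0.039, edgeR), with both knockdown libraries above both controls. Fgf4, the autocrine ligand that moves ESCs towards differentiation, had knockdown libraries below both controls but did not pass, with a log2 fold change of -0.29 (SE 0.10, adjusted p = 0.14, edgeR). Fgf5, its formative relative, was at 0.22 and 0.13 CPM in shScramble and 0.12 and 0.28 CPM in shYthdf2, so these libraries did not resolve a difference. Jam2, a junction protein of the ESC surface, and Spp1, the secreted protein osteopontin, had log2 fold changes of 0.15 and 0.11 and did not pass.

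The promoters of Tcl1 (chr12:105222688-105222987, minus strand, GRCm38.p6) and Tdgf1 (chr9:110946109-110946408, minus strand) are shown because these members fell and have an entry. Neither holds any of the 5 motifs, so neither has capitals, and their G and C content was 56.7% and 41.7%.
Tcl1: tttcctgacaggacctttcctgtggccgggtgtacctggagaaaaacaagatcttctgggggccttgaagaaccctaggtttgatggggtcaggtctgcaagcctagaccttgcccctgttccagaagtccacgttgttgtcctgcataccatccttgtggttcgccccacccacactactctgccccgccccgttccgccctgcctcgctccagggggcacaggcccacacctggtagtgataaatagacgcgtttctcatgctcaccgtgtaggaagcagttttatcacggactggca
Tdgf1: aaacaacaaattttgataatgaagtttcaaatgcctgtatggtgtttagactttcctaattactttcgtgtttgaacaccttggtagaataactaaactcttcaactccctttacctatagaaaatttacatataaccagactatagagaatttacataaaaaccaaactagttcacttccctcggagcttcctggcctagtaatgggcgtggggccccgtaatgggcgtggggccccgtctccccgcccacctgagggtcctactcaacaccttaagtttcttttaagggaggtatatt
Gdf3, Nanog and Dppa3 lie close together on chromosome 6, from 122605403 to 122714633. Of these neighbours Gdf3 alone passed the threshold, beside log2 fold changes of -0.41 for Nanog and 0.19 for Dppa3.

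Of the 5 other ESC-enriched genes, 1 rose and 4 did not pass, beside 2.43% of all genes tested called higher. Tdh (chr14:63492347-63509092, minus strand, mm10), the threonine dehydrogenase on which mouse ESCs depend for one-carbon metabolism, was read at 149 and 139 CPM in shScramble and at 227 and 195 CPM in shYthdf2. Both knockdown libraries lay above both controls, and the log2 fold change was 0.55 (SE 0.11, adjusted p = 0.032, edgeR). The antisense gene Gm17232 covers 27.0% of the exon bases of Tdh, and reads over both genes were dropped by the counting, so this value rests on the rest of the gene. Dppa5a was lowest of the 5, with a log2 fold change of -0.31 (SE 0.12, adjusted p = 0.18, edgeR) and knockdown libraries below both controls. Utf1, Fbxo15 and Dppa3 had log2 fold changes of 0.15, 0.05 and 0.19 with overlapping groups. For Dppa3 the standard error was 0.38, and its value turned from 0.19 to -0.54 when shYthdf2 replicate 1 was left out.

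Of the 6 formative genes tested, 1 rose and 5 did not pass, beside 2.43% of all genes tested called higher. The median log2 fold change of the 6 was -0.07. Sall2, a spalt-like zinc finger factor related to Sall4, had the highest fold change of the network (chr14:52311177-52328670, minus strand, mm10). It had 130 and 144 reads in shScramble and 264 and 494 in shYthdf2, or 3.61 and 4.57 CPM against 7.72 and 13.8 CPM. The log2 fold change was 1.40 (SE 0.30, adjusted p = 0.038, edgeR). Both knockdown libraries lay above both controls, but they were far apart from each other, and without shYthdf2 replicate 2 the log2 fold change was 0.92 (adjusted p = 0.054, edgeR). Sall2 stayed a low transcript in both groups, at 0.77 RPKM in shScramble and 2.02 RPKM in shYthdf2, against 46.8 and 53.9 RPKM for Sall4. In limma-voom its call was lost as well.

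The other formative genes had values on both sides of 0, and none passed. Zic2, a zinc finger factor, had knockdown libraries above both controls and a log2 fold change of 0.40 (SE 0.15, adjusted p = 0.17, edgeR). Tcf15, a helix-loop-helix factor that marks cells primed to leave the naive state, was lowest, with knockdown libraries below both controls and a log2 fold change of -0.32 (SE 0.14, adjusted p = 0.23, edgeR). Otx2 and Foxd3 had log2 fold changes of 0.06 (SE 0.19) and -0.30 (SE 0.20) with overlapping groups. Foxd3 is annotated on chromosome 4 and on 1 extra contig, so its level too can be higher than counted. Its shScramble libraries were far apart, at 133 and 82.7 CPM. Of the defining markers of the formative switch, Otx2 and Pou3f1 did not pass and Fgf5 could not be tested.

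Sall2 has 2 promoter entries, which are shown because it had the largest rise. The first (chr14:52328621-52328920, minus strand, GRCm38.p6) was 30.3% G and C, and the second (chr14:52316274-52316573, minus strand) 65.0%. Neither holds any of the 5 motifs. The gene counts pool all exons and do not show which start was used.
Sall2-first: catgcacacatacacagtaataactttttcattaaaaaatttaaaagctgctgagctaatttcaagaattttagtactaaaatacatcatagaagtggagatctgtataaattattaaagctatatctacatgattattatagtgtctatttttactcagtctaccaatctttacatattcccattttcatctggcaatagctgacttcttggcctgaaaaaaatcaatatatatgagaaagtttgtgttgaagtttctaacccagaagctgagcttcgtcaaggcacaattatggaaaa
Sall2-second: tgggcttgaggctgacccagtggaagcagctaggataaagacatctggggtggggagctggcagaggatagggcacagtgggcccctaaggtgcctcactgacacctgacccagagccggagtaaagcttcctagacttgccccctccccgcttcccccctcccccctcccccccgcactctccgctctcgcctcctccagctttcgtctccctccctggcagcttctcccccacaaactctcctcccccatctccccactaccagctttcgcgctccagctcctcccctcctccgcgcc

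The 3 genes of the cell cycle and let-7 axis held 0 calls, and all had log2 fold changes below 0. Mybl2, a cell cycle transcription factor that is abundant in ESCs, was lowest. It was read at 961 and 933 CPM in shScramble and at 754 and 737 CPM in shYthdf2, so the groups were well apart, but its log2 fold change of -0.35 (SE 0.10) did not pass (adjusted p = 0.083, edgeR). Of the windows of the Mybl2 transcript, 16.0% also occur in the transcript of Gm3320. Lin28b, which blocks maturation of the microRNA let-7, had a log2 fold change of -0.02 (SE 0.17), and Trim71, a ubiquitin ligase that let-7 targets, one of -0.19 (SE 0.16). Both overlapped between the groups.

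How far a member depended on 1 library differed widely. With each library left out in turn, 24 of the 39 genes kept their sign and 15 changed it at least once, none of them called. For the 20 members whose groups did not overlap, among them all 7 called genes, leaving out 1 library could hardly turn the sign. A kept direction is therefore no support for these calls, and only the size of the change was open. Tcl1 lay between -0.98 and -0.78, Klf5 between -0.64 and -0.38 and Prdm14 between -0.60 and -0.43. Tdgf1 lay between -0.56 and -0.38, Gdf3 between 0.44 and 0.68, Tdh between 0.44 and 0.66 and Sall2 between 0.92 and 1.76. Without shScramble replicate 2, 4 of these calls were lost (Prdm14, Gdf3, Tdgf1 and Tdh). Without shScramble replicate 1, Klf5 was lost. Calls were also gained in these fits, which take their spread almost wholly from other genes. They were Nr0b1, Zic2, Klf2 and Gbx2 without shScramble replicate 1, and Foxd3 without shScramble replicate 2. Without shYthdf2 replicate 1 they were Foxd3, Lifr, Dppa5a, Nanog and Mybl2, and without shYthdf2 replicate 2 Nr0b1, Zic2, Trim71, Klf2, Utf1, Nanog, Spp1, Mybl2, Tcf15 and Gbx2. The groups of Nanog and Mybl2 did not overlap either, and their log2 fold changes lay between -0.48 and -0.34 and between -0.37 and -0.32.

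**Figure D3:**
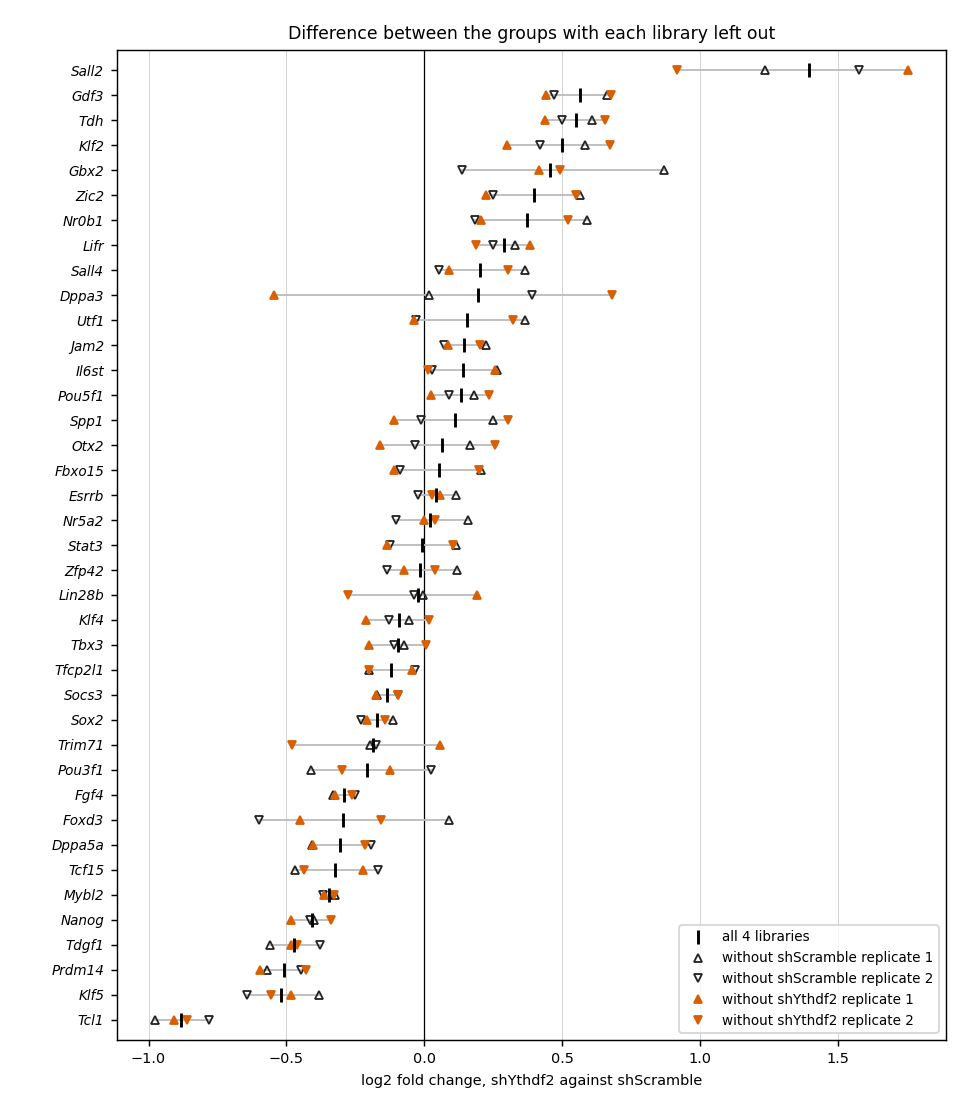
Log2 fold change of the 39 tested genes with all 4 libraries (bar) and with each library left out (triangles, open for a shScramble and filled for a shYthdf2 library), ordered from highest to lowest. Sall2 runs from 0.92 to 1.76 and Dppa3 from -0.54 to 0.68, while Tcl1 stays between -0.98 and -0.78.

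A further 42 genes of the pathway, listed from general knowledge, were counted in the same fit. All 42 were tested, and 4 rose and 3 fell (16.7%, beside 3.91% of all genes tested, 2.43% higher and 1.49% lower). The median log2 fold change of the 42 was 0.01. Its median absolute value was 0.25, as over all genes tested, and the median standard error was 0.13 against 0.21. Of the ESC-enriched genes in the list, 1 of 20 rose and 2 fell. Lefty2, a secreted inhibitor of Nodal, fell from 14.3 and 17.4 CPM to 4.21 and 4.97 CPM, a log2 fold change of -1.78 (SE 0.21, adjusted p = 0.0046, edgeR). Its relative Lefty1 had a log2 fold change of -0.997 (SE 0.41) and did not pass (adjusted p = 0.21, edgeR). Pecam1, an adhesion protein of naive cells, fell with a log2 fold change of -0.54 (SE 0.12, adjusted p = 0.043, edgeR). Zscan10, a zinc finger factor of ESCs, rose by 0.64 on the log2 scale (SE 0.15, adjusted p = 0.0496, edgeR). Nodal itself, the ligand that Lefty proteins inhibit, had a log2 fold change of 0.16 and did not pass (adjusted p = 0.47, edgeR).

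Of 8 genes of LIF and JAK-STAT signalling, 1 rose and 1 fell, beside 2.43% of all genes tested called higher and 1.49% lower. Lif itself rose, from 4.03 and 3.87 CPM to 9.30 and 7.71 CPM, a log2 fold change of 1.11 (SE 0.24, adjusted p = 0.038, edgeR), in a medium that supplied LIF to both groups. Pim1, a kinase gene that STAT3 activates, fell from 217 and 240.1 CPM to 117 and 133 CPM, a log2 fold change of -0.87 (SE 0.11, adjusted p = 0.0053, edgeR). Of 11 formative and primed genes, 2 rose and 0 fell. Cdh2, the N-cadherin gene, rose from 1.67 and 1.46 CPM to 5.88 and 5.64 CPM, a log2 fold change of 1.88 (SE 0.29, adjusted p = 0.011, edgeR). Sox3, a relative of Sox2, rose from 10.1 and 8.79 CPM to 20.2 and 19.6 CPM, a log2 fold change of 1.07 (SE 0.18, adjusted p = 0.014, edgeR). None of the 3 further let-7 axis genes passed.

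**Figure D4:**
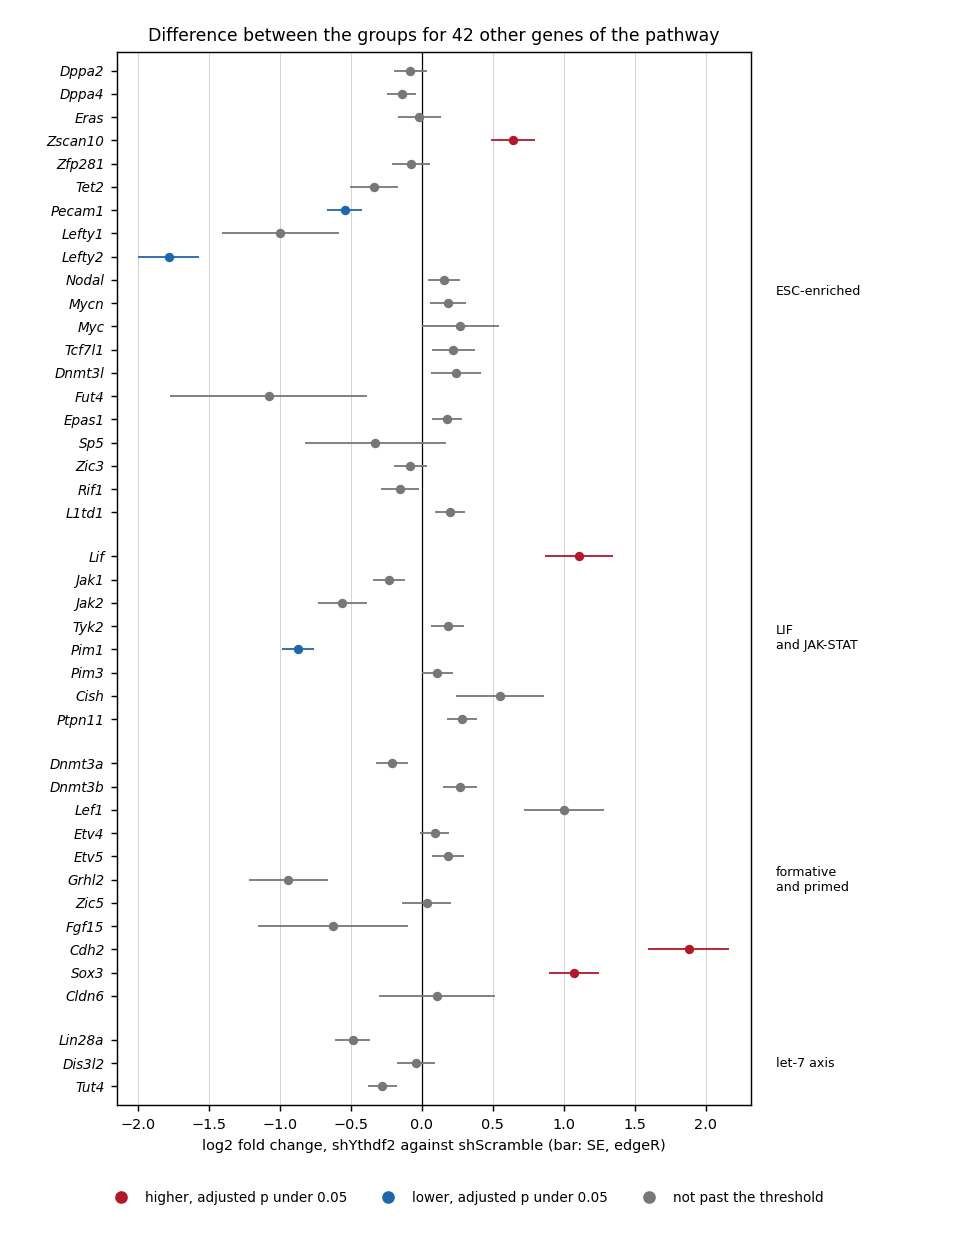
Log2 fold change of 42 other pathway genes, shYthdf2 against shScramble, with its standard error from edgeR as a bar, by group. Red points are higher and blue points lower at an adjusted p under 0.05. The calls run from Lefty2 at -1.78 to Cdh2 at 1.88.

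Markers of other cell types were measured beside the network. The 12 markers of 2C-like cells, the rare state of ESC cultures that uses genes of the 2-cell embryo, summed to 49.9 and 68.4 CPM in shScramble and to 88.2 and 223 CPM in shYthdf2. Of the 11 tested, 2 rose (Zscan4a and Usp17la), and 10 had a log2 fold change above 0. For this and the lists below, 2.43% of all genes tested were called higher and 1.49% lower. A log2 fold change above 0 was seen in 9213 of the 18341 genes tested. The defining gene Duxf3 had 0 reads in shScramble replicate 2, which for counting error alone allows a level of up to 0.095 CPM from 3 reads. Duxf3 is annotated on 2 contigs and reads that map to more than 1 place were dropped, so its level can be higher than counted. The highest sum was that of shYthdf2 replicate 2, and the part of 2C-like cells in the network's differences was not tested. The 8 primitive endoderm markers summed to 16.1 and 15.6 CPM against 20.8 and 12.9 CPM, with 0 of 7 tested markers called and none at 0 in a library. In this list the shYthdf2 libraries thus lay on either side of the controls. The 6 mesoderm markers summed to 26.9 and 26.2 CPM against 26.5 and 20.3 CPM with 0 of 5 called, and Mesp1 was at 0 in 1 library. The 8 trophectoderm markers summed to 143 and 155 CPM against 146 and 115 CPM, with 1 of 7 called, Esx1, which fell, and Elf5 at 0 in 1 library. For mesoderm and trophectoderm, the lowest sum was that of shYthdf2 replicate 2. These sums are not separate, because Eomes is in both lists and made up most of the mesoderm sum. It was read at 21.3 and 20.2 CPM in shScramble and at 19.3 and 15.2 CPM in shYthdf2. The 6 neuroectoderm markers summed to 34.4 and 34.6 CPM against 51.2 and 43.1 CPM, with 1 of 4 called, Nes, which rose, and Neurog2 at 0 in 3 of the 4 libraries. Nes itself went from 14.55 and 13.6 CPM to 26.4 and 22.1 CPM, which is most of the gap in this sum. The 6 fibroblast markers summed to 17.3 and 18.0 CPM against 9.54 and 15.8 CPM with 0 of 3 called, and Col3a1 and Lum were at 0 in some libraries. Their part in the network's differences was not tested either.

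**Figure D5:**
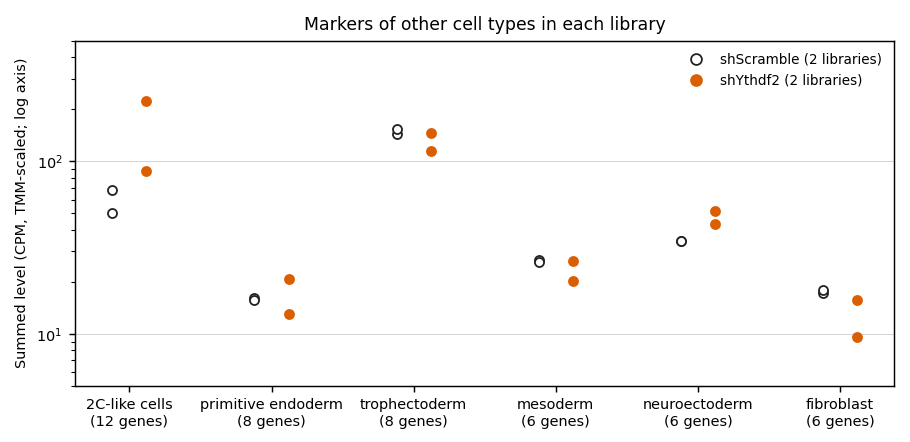
Summed level of each marker list in each library, in CPM on a log axis, with open points for shScramble and filled points for shYthdf2. The 2C-like list reaches 223 in shYthdf2 replicate 2 against 49.9 to 88.2 in the other libraries. The neuroectoderm list lies at 51.2 and 43.1 in shYthdf2 against 34.4 and 34.6, and most of this gap is Nes, at 26.4 and 22.1 against 14.55 and 13.6.

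The transcripts of the network were also compared in the letters GGACT, a common core of the m6A consensus, counted in the longest coding transcript of each gene in the GENCODE annotation. All 40 members had such a transcript, with a median of 1.20 sites per kilobase, beside 1.05 in the 14063 of 18341 tested genes that had one. The 3 members that rose had between 1.17 and 1.59 sites per kilobase, the 4 that fell between 0.39 (Prdm14) and 1.55 (Tdgf1). The ranges of the members that rose and fell overlapped. Nanog held 4 sites, 1.81 per kilobase. Nr0b1, Dppa3, Dppa5a and Fgf5, 10% of the members, held 0, beside 7.54% of the 14063 tested genes with such a transcript. A site is a match of letters, and methylation was not measured in these libraries.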

How the data were processed

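RNA-seq was analysed in 2 shScramble and 2 shYthdf2 libraries, grouped by their labels. Per the study's methods and the submitters' processing notes, the authors trimmed paired reads with fastp 0.19.4, aligned them with HISAT2 2.2.1 to mm10 and counted reads per ncbiRefSeq gene with featureCounts 2.0.3, followed by DESeq2 1.40.2. The deposited values are raw read counts per gene, and the file header shows that counting was not strand-specific, that multi-mapping reads and reads over more than 1 gene were dropped, and that reads rather than pairs were counted. Hence antisense overlaps lose reads, and a pair can count as more than 1 observation.

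Genes passing filterByExpr (minimum count 10, minimum total 15) were tested in edgeR 4.0.16 (R 4.3.3) with TMM scaling, the quasi-likelihood F test and Benjamini-Hochberg adjustment over all 18341 genes, with 0.05 as the threshold. Tested genes held 99.9% of the reads. The fit was tested on simulated data. CPM values are scaled to the TMM library size, and RPKM was computed here from it and the annotated exon length. The smallest resolved level, 3 reads, was 0.083 to 0.095 CPM, and it covers counting error only. The p-values measure the spread between 2 libraries a group, drawn towards that of other genes. With 4 libraries and 7.85 prior degrees of freedom, most of the weight in that spread comes from other genes.

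The 40 members and the lists of other pathway genes and markers were chosen with earlier results of these data known. Every member is described. Called genes, core factors and genes whose groups lay apart by 0.5 or more on the log2 scale were given in each library, the others with the highest and lowest of their role. Values named beyond this rule (among them Dppa3, Foxd3, Mybl2, Nodal and the low formative genes) were chosen after they were seen. Of the other lists, called genes and members of their families were named. Alternatives were RLE, library totals and upper quartile scaling, no filter, a mean of at least 1 CPM, DESeq2 1.42.0, limma-voom (limma 3.58.1), halved counts, the replicate number as a block, each library left out, and the study's criteria. Promoters came from RefSeq and transcripts from GENCODE, matched by symbol.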

Additional observations from a re-analysis of the deposited data

How the results depend on the processing

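Ythdf2 kept its call in every alternative (log2 fold change -1.59 to -1.50), and no member changed sign except with a library left out. Scaling, a mean filter, limma-voom and halved counts kept the members at 6 to 8 calls, while limma-voom lost Prdm14 and Sall2, and DESeq2 gave 10. The prior degrees of freedom were 7.85 here and 7.11 to 7.8 in the scaling, mean-filter and halved-count fits, but 68.9 in the replicate block, 138 without shYthdf2 replicate 1 and infinite with no filter or another library left out. Those fits take the spread almost wholly from other genes, so their counts are not comparable one for one.

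The alternatives covered unlike numbers of genes. No filter and DESeq2 took all 30565 genes with a read, the replicate block 18341 as in the main fit, and the fits with a library left out 19408 to 19558. With no filter, 6 members were higher (5 pathway genes lower, 9 markers higher and 2 lower), and over all genes 1095 higher and 843 lower. DESeq2 called 800 genes higher, 602 lower and 5 pathway genes lower. The study's criteria called 1 member higher and 0 lower. With the replicate number as a block, 8 members were higher and 9 lower, as were 7 and 8 pathway genes, 12 and 5 markers, and 1851 and 1674 of all genes. The labels tie nothing to equal numbers (correlation of deviations 0.225), so the block is no pairing.

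With a library left out, where a lone library is assumed to vary like the other group, calls ranged from 1 to 8 (members higher), 3 to 8 (members lower), 534 to 1175 (all higher), 300 to 1113 (all lower), 3 to 7 (pathway higher), 2 to 6 (pathway lower), 4 to 10 (markers higher) and 1 to 2 (markers lower). Without shScramble replicate 2 there were 4 member calls, and 16 without shYthdf2 replicate 2. Medians on the log2 scale ranged from -0.11 to 0.11 over the members, -0.10 to 0.12 in the naive factors, -0.033 to 0.19 in the LIF arm, -0.22 to -0.031 in signalling genes, -0.11 to 0.32 in other ESC genes, -0.14 to 0.13 in formative genes and -0.33 to 0.058 in the cell cycle and let-7 genes. Sign changes without 1 library were Klf4 (-0.21 to 0.017), Esrrb (-0.023 to 0.12), Tbx3 (-0.20 to 0.0060), Nr5a2 (-0.10 to 0.16), Zfp42 (-0.14 to 0.12), Stat3 (-0.14 to 0.11), Spp1 (-0.11 to 0.30), Dppa3 (-0.54 to 0.68), Utf1 (-0.037 to 0.36), Fbxo15 (-0.11 to 0.21), Otx2 (-0.16 to 0.26), Pou3f1 (-0.41 to 0.024), Foxd3 (-0.60 to 0.091), Trim71 (-0.48 to 0.058) and Lin28b (-0.28 to 0.19). The cause was not tested. Fgf5, with 4 to 10 reads a library, was too shallow to test.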
